A study of Homo sapiens with 6 samples.

Results

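The 10 genes described here encode receptors of the PDGF, HGF and FGF systems and some of their ligands. They were taken from the table by gene symbol, and all 10 were among the 60504 genes of the expression table. The receptors are PDGFRA, PDGFRB, MET, FGFR1, FGFR2 and FGFR3, and the ligands are PDGFA, PDGFC, HGF and FGF2. Expression was measured by RNA-seq in WM164, a human melanoma cell line with the BRAF V600E mutation, after transfection with an empty vector (EV, 3 libraries) or with an HDAC8 expression vector (HDAC8, 3 libraries). HDAC8 is a class I histone deacetylase. Both groups carried the same BRAF mutation and were kept under hygromycin after transfection. The promoter of the vector, and whether the cells were pools or single clones, are not given in the sources used here. Nothing in the labels says that the 3 libraries of a group came from separate cultures, so p-values measure the spread between these libraries, which may be technical.

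Receptor tyrosine kinases are cell surface proteins that pair when a ligand binds, phosphorylate one another and pass the signal to the RAS-ERK and PI3K pathways. PDGF ligands act on PDGFRA and PDGFRB, HGF acts on MET, and the FGF ligands act on the FGF receptors together with heparan sulphate chains. In BRAF-mutant melanoma such receptors are known to restart ERK signalling when BRAF is inhibited, and PDGFRB, MET and FGFR family members have each been tied to resistance.

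Total expected counts ran from 34741083 to 42041462 per library and overlapped between the groups. The share of mitochondrially encoded transcripts was 9.66% to 12.8% in EV and 4.46% to 7.94% in HDAC8. Its part in the results was not tested, and a fit without these transcripts gave the same calls for the 10 genes. In a principal component analysis of the 1000 genes with the widest spread, the groups separated on the leading component, and on the next HDAC8 1 (59.5) and HDAC8 2 (-58.7) lay farthest apart. In bulk RNA, fewer cells of a type and less RNA per cell cannot be told apart. The HDAC8 transcript itself had 383.8, 404.4 and 478.8 normalized counts in EV and 484.8, 445.5 and 473.7 in HDAC8, and the difference was 0.15 on the log2 scale (adjusted p = 0.856, DESeq2). The groups overlapped in this transcript, and directions are given for libraries as labelled. Melanocytic markers were abundant in both groups, with SOX10 at 15120 and 12061 and MITF at 17339 and 15110 normalized counts on average. MLANA, a melanosomal antigen, was lower in the libraries labelled HDAC8 (8665 against 303.1), as were PMEL, TYR and DCT. Thus 4 of the 6 melanocytic markers were called lower, where 5.44% of all genes tested were. The 6 summed to 243681.5 to 327471.6 in EV and 136367.6 to 181340.4 in HDAC8, and the part of this shift in the results was not tested.

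The DNA before the start site is shown for the 4 genes called higher and for FGF2, the gene called lower. Each stretch lies before the most upstream RefSeq start of the gene (GRCh38.p14) and stops at the first annotated exon base. PDGFRA, PDGFA and FGFR2 have further RefSeq starts, and the bases before those were not searched. Capitals mark a match to TGANTCA, which allows any base at the centre of the AP-1 site bound by JUN and FOS proteins. The usual site has C or G there, and the match before PDGFRA, TGAATCA, has A. GGAATG (TEAD) and CACGTG (E-box, bound by MITF) were searched as well, on both strands, as was GGGCGG, the GC box, which is left in lower case.

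PDGFRA, chr4:54229043-54229279, plus strand: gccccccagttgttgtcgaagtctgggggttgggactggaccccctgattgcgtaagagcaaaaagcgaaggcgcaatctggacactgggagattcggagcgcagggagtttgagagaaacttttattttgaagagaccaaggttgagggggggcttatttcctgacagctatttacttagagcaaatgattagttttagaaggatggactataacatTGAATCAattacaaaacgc
PDGFA, chr7:520701-520950, minus strand: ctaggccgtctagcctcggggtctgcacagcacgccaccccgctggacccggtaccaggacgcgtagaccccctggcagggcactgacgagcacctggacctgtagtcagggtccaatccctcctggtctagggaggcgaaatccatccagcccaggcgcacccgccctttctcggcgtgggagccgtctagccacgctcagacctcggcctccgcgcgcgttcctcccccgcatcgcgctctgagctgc
MET, chr7:116671946-116672195, plus strand: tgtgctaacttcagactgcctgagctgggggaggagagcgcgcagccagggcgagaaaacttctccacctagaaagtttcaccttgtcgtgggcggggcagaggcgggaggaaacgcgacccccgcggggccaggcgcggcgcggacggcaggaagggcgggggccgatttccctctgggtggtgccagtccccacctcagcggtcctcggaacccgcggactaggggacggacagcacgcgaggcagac
FGFR2, chr10:121598459-121598694, minus strand: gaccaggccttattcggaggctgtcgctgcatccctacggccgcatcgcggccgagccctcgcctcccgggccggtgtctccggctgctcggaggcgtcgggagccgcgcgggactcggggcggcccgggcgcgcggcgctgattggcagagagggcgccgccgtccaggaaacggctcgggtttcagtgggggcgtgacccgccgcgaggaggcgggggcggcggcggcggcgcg
FGF2, chr4:122826581-122826681, plus strand: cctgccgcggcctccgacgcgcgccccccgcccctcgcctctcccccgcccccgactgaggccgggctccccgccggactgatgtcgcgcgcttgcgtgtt

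Of the windows of 250 bases before these 5 starts, 1 held a match to this looser AP-1 pattern, that of PDGFRA. No window held a TEAD or E-box match. Among 34943 such RefSeq windows, 6.59% held a match to the same AP-1 pattern, 11.9% a TEAD match and 6.32% an E-box match. GC boxes lay in 4 of the 5 windows (PDGFA 1, MET 2, FGFR2 3 and FGF2 3 matches) and in 42.5% of all windows. Matches and GC content were counted over all 250 bases. Of these, 237 are printed for PDGFRA, 236 for FGFR2 and 101 for FGF2, where annotated exons begin within the window. These matches describe the letters and not any binding. GC content was 46.8% in the PDGFRA window, against 68.8% for PDGFA, 68.4% for MET, 78.4% for FGFR2 and 75.2% for FGF2, with a median of 58% over all windows. Windows were read for 8 of the 10 genes, and not for PDGFC or FGFR1. Windows on chromosome 8, which holds FGFR1, were left out of the search for the 10 genes.

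PDGFA, PDGFRA, MET and FGFR2 were higher and FGF2 was lower in the libraries labelled HDAC8. These calls required a DESeq2 adjusted p under 0.05, over all genes tested, and a change of at least 0.58 in either direction on the log2 scale. Of the 10 genes, 9 passed the filter of 10 counts in total, and HGF did not. Among the 9, 4 were called higher, where 5.57% of all genes tested were, and 1 was called lower, where 5.44% were. Calls in either direction made up 11.0% of the genes tested. In 8 of the 9 genes the groups shared no range, against 24.0% of all genes past the filter. The median log2 fold change of the 9 was 0.82, and that of all genes was 0.00. The 10 genes were chosen with earlier results of these data known, so these shares describe them and test nothing.

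**Figure D1:**
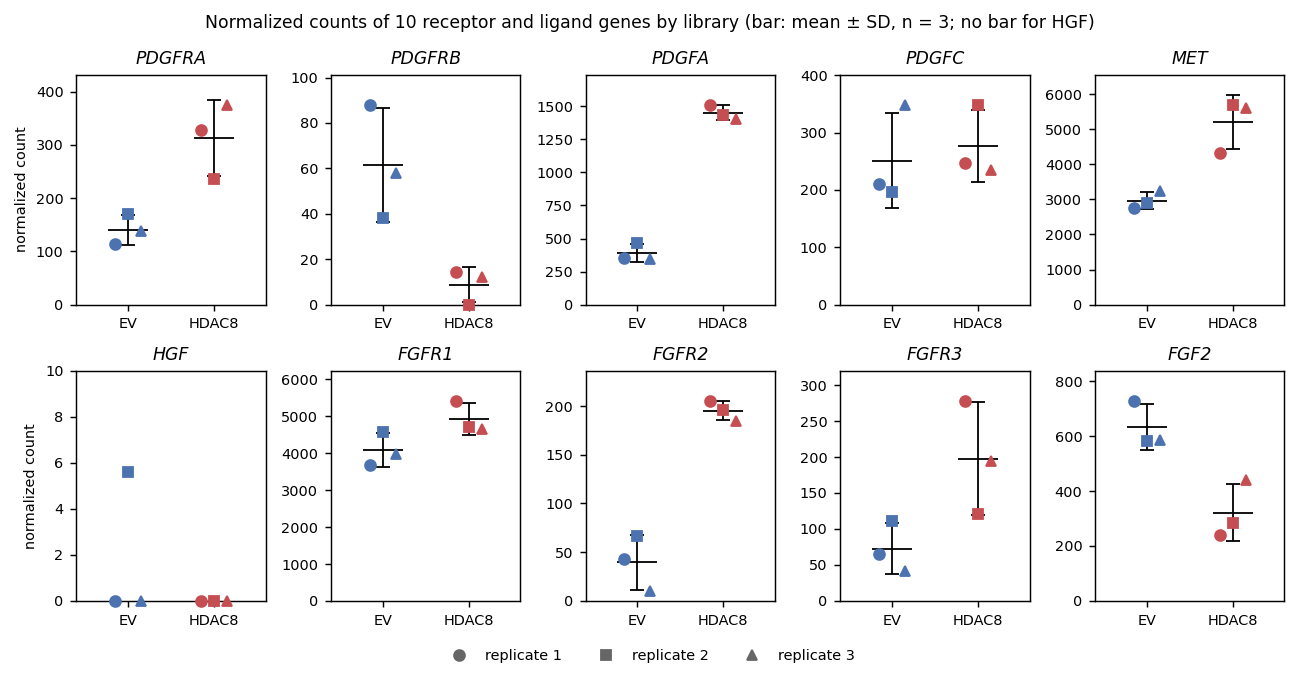
Normalized counts (y axis, each from 0) of the 10 genes in the 3 EV and 3 HDAC8 libraries, with points for libraries and a bar for the mean ± SD (none for HGF). PDGFA sits between 348.7 and 469.8 in EV and between 1404.7 and 1514.3 in HDAC8, while PDGFRB lies at 14.5 or lower in every HDAC8 library.

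PDGFRA (ENSG00000134853, GRCh38 chromosome 4, 54229280 to 54298245, plus strand) encodes the PDGF receptor alpha chain, which binds PDGF-A and PDGF-C among other ligands. It had 113.2, 170.0 and 137.9 normalized counts in EV and 327.5, 235.6 and 375.7 in HDAC8. All HDAC8 libraries lay above all EV libraries, with HDAC8 2 the lowest of its group. PDGFRA rose by 1.16 (SE 0.41) on the log2 scale (adjusted p = 0.0377 by DESeq2), a 2.23-fold rise with a 95% interval of 1.28 to 3.87. This call was close to the threshold. It was lost with edgeR (adjusted p = 0.0597) and with limma-voom (0.0769), and without each library in turn except HDAC8 replicate 2, and the log2 fold change lay between 1.00 and 1.33 over all these fits. A test against a change of 0.58 itself did not call it either.

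PDGFRA shares sequence with AC058822.1, a gene annotated on the same strand that runs from within FIP1L1 into PDGFRA, and 5 of its 6 expected counts were not whole numbers. AC058822.1 had 8.4, 0 and 6.9 normalized counts in EV and 23.9, 5.1 and 87.1 in HDAC8. With its reads added, an alternative chosen after seeing the data, PDGFRA had 121.6, 170.0 and 144.8 against 351.4, 240.7 and 462.8, and the log2 fold change was 1.27 (SE 0.41, adjusted p = 0.0174 by DESeq2). Around PDGFRA, FIP1L1 had a log2 fold change of -0.19 and SCFD2 one of -0.09, and neither was called. KIT, the receptor gene that follows PDGFRA, had no count in any library but EV 2 (2.8 normalized counts), and KDR, a receptor for VEGF, was listed above 0 in EV 2 (8.4) and HDAC8 2 (27.7) alone. The homeobox gene GSX2, the nearest protein-coding neighbour on the other side, had no reads in any library.

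PDGFRB (ENSG00000113721, GRCh38 chromosome 5, 150113839 to 150155872, minus strand) encodes the beta chain, a receptor of fibroblasts and pericytes that has been found raised in melanoma cells resistant to BRAF inhibitors. Its values lay lower in the libraries labelled HDAC8, though it was not called. Its normalized counts were 88.1, 38.3 and 58.1 in EV and 14.5, 0 and 12.0 in HDAC8. The groups did not overlap, and the count of 0 in HDAC8 2 allows up to 3 counts, or 3.07 normalized counts. The log2 fold change was -2.79 (95% interval -5.07 to -0.51), and the adjusted p of 0.0966 (DESeq2) missed the threshold. Only the fit without HDAC8 replicate 1 gave a call at the adjusted threshold (log2 fold change -3.37, adjusted p = 0.0484).

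As a share of the summed PDGFRA and PDGFRB level per transcript length, PDGFRA made up 53.4%, 79.9% and 68.0% in EV and 95.3%, 100% and 96.6% in HDAC8. The means were 67.1 ± 13.2% and 97.3 ± 2.45% (SD, n = 3), and no library of either group reached into the other. This share was formed after the values of both genes were seen and is given without a test. With the union of all exons as the length the means were 63.2 ± 14.0% and 96.8 ± 2.90% (SD, n = 3).

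Since both receptors are known from fibroblasts, 7 fibroblast markers were read in the same libraries. Their summed normalized counts were 2411.4 to 2883.7 in EV and 1148.4 to 2216.3 in HDAC8, mostly from LUM, which encodes lumican. DCN was at 0 in every library, and COL1A2, COL3A1 and POSTN had at most 18.7 normalized counts. COL1A1 had 101.7, 95.3 and 105.4 in EV and 79.5, 29.7 and 0 in HDAC8, and FAP, a fibroblast protease, had 102.8, 80.3 and 37.4 against 12.8, 28.7 and 29.4. The values of COL1A1, FAP and LUM were lower in HDAC8 without overlap, as were those of PDGFRB, while those of PDGFRA were higher. Thus in 3 of the 5 fibroblast markers past the filter the groups shared no range, against 24.0% of all genes past it. None of the fibroblast markers was called. The median log2 fold change of the 5 that passed the filter was -1.46, the value of COL1A1, and that of LUM was -0.60. COL1A2 and COL3A1 passed the filter but had no adjusted p. Endothelial markers summed to 97.5 to 202.9 in EV and 120.8 to 263.4 in HDAC8, mostly from VWF, with CDH5 at 0 throughout. Epithelial markers summed to 336.6 to 460.4 and 528.1 to 755.0, mostly from KRT8, and EPCAM was at 0. Of the leukocyte markers CD3E had 78.7, 91.1 and 50.1 normalized counts in HDAC8 and none in EV, and was called higher (DESeq2 adjusted p = 1.1e-06). PTPRC, which marks leukocytes in general, had at most 2.6. The 4 leukocyte markers summed to 0 to 14.7 in EV and 50.1 to 111.6 in HDAC8. The part of other cell types in the results was not tested beyond these levels.

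Among the PDGF ligands PDGFA (ENSG00000197461, GRCh38 chromosome 7, 497258 to 520296, minus strand), whose product signals through PDGFRA, had the smallest adjusted p of the 10 genes. It had 350.2, 469.8 and 348.7 normalized counts in EV and 1514.3, 1432.8 and 1404.7 in HDAC8. The lowest HDAC8 library was far above the highest EV library, and the spread within each group was small. On the log2 scale PDGFA rose by 1.90 (SE 0.23, adjusted p = 1.29e-14 by DESeq2), a 3.72-fold rise with a 95% interval of 2.73 to 5.07. It was called in all 16 alternatives, with log2 fold changes of 1.82 to 2.05, among them the test against a change of 0.58 itself (adjusted p = 1.01e-06). PRKAR1B, a regulatory subunit gene of protein kinase A that lies 28901 bases from PDGFA, also rose (log2 fold change 2.20, adjusted p = 3.59e-10 by DESeq2).

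PDGFC (ENSG00000145431, chromosome 4), which encodes another ligand of PDGFRA, had 210.8, 196.1 and 347.7 normalized counts in EV and 247.1, 349.2 and 235.2 in HDAC8. The ranges of the groups overlapped, with EV 3 and HDAC8 2 almost equal at the top. For PDGFC the log2 fold change was 0.14 (95% interval -0.64 to 0.92, DESeq2 adjusted p = 0.916), so a change of up to 1.90-fold upward lies within its error. Of the ligands outside the 10 genes, PDGFB had no EV reads and 100, 0 and 21.8 normalized counts in HDAC8, and PDGFD had 262.6 ± 60.2 against 142.2 ± 31.6 (SD, n = 3, log2 fold change -0.89), and neither was called (adjusted p = 0.199 and 0.172 by DESeq2).

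MET (ENSG00000105976, GRCh38 chromosome 7, 116672196 to 116798377, plus strand) encodes the receptor of HGF. It had 2749.4, 2910.1 and 3232.2 normalized counts in EV and 4333.5, 5708.6 and 5620.1 in HDAC8. All HDAC8 libraries were above the EV libraries, with HDAC8 1 the lowest of the 3. MET rose by 0.82 (SE 0.16) on the log2 scale (adjusted p = 1.84e-05 by DESeq2), a 1.76-fold rise with a 95% interval of 1.41 to 2.20. MET was called in 15 of 16 alternatives, the exception being the test against a change of 0.58 itself, since its interval reaches below that size. CAV1, a caveolar coat gene 111017 bases before MET, rose too (log2 fold change 1.36, adjusted p = 8.29e-07), and CAPZA2, which follows MET at 12693 bases, did not pass the test (0.11, adjusted p = 0.878, both by DESeq2).

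HGF (ENSG00000019991, chromosome 7), the ligand of MET, had 5.6 normalized counts in EV 2 and no reads in any other library. At this depth a level under about 3 counts per library, or 2.57 to 3.27 normalized counts, was not detectable, and no fold change is given. HGF is secreted as an inactive chain that proteases cut. HGFAC, one such protease, had no EV reads and 15.4, 16.4 and 34.8 normalized counts in HDAC8, at least 7.48-fold higher on average against a floor of 3 counts per library, and was called (DESeq2 adjusted p = 0.0151). Of the other proteases, ST14 was at 10.3 in HDAC8 1 and at 0 elsewhere, and HPN had 86.0, 48.6 and 6.9 in EV and 9.4, 8.2 and 21.8 in HDAC8 and was not called (DESeq2 adjusted p = 0.350). The inhibitors SPINT1 and SPINT2 had at most 15.2 normalized counts. MST1R, the receptor most like MET, had at most 8.7. CD44, a co-receptor of MET, had the most normalized counts of this list (not scaled by length) and was not called (21530 ± 1949 against 17494 ± 2944, SD, n = 3, log2 fold change -0.30, adjusted p = 0.203 by DESeq2). In all, 1 of these 10 relatives was called higher and none lower, 5 had an adjusted p and were not called, and 4 had none. Of all genes tested, 5.57% were called higher and 5.44% lower. The median log2 fold change of this list was 0.22.

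Among the FGF receptors, FGFR2 rose, FGFR3 missed the threshold and FGFR1 was not called. FGFR1 (ENSG00000077782) had 3677.4, 4577.2 and 3986.8 normalized counts in EV and 5417.8, 4713.1 and 4659.6 in HDAC8. The groups did not overlap, but EV 2 and the lower HDAC8 libraries lay close together. The log2 fold change was 0.27 (95% interval -0.03 to 0.57, DESeq2 adjusted p = 0.274), and no alternative called it. LETM2, which overlaps FGFR1 on the opposite strand, had a log2 fold change of 0.04 (adjusted p = 0.985).

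FGFR2 (ENSG00000066468, GRCh38 chromosome 10, 121478332 to 121598458, minus strand), a receptor best known from epithelia, had 43.0, 66.3 and 9.9 normalized counts in EV and 205.2, 195.6 and 185.1 in HDAC8. The HDAC8 libraries were close to one another and all well above EV, whose own spread was wide. This was a rise of 2.30 (SE 0.66) on the log2 scale (adjusted p = 0.00616 by DESeq2), a 4.91-fold rise with a 95% interval of 2.02 to 12.0. It was called in 15 of 16 alternatives, with log2 fold changes from 1.83 to 2.89, and not in the test against a change of 0.58 itself (adjusted p = 0.219). Next to FGFR2, WDR11 was lower (log2 fold change -0.99, adjusted p = 1.12e-08 by DESeq2) and ATE1 was not called (-0.59, adjusted p = 0.157).

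FGFR3 (ENSG00000068078, chromosome 4, 1793293 to 1808872, plus strand) had 65.0, 111.1 and 41.4 normalized counts in EV and 277.9, 120.8 and 194.9 in HDAC8. The lowest HDAC8 library was only just above the highest EV library, and HDAC8 1 was the highest. Its log2 fold change was 1.45 (SE 0.57, adjusted p = 0.0755 by DESeq2). It passed the threshold with at least 10 counts in every library (adjusted p = 0.0156), without EV replicate 2 (0.0365) and without HDAC8 replicate 2 (0.0433), and its log2 fold change without HDAC8 replicate 1 was 1.12 (adjusted p = 0.289).

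Levels of different genes were compared only after scaling by the length of the canonical transcript and the library's total (TPM). On this scale FGFR1 was the highest of the 10 genes in EV (41.4, 44.9 and 39.6), followed by MET (25.8, 23.8 and 26.8), PDGFA (8.19, 9.57 and 7.20), FGF2, PDGFC and PDGFRA, and each of these neighbours in the order was set apart without overlap. PDGFRA, FGFR3, PDGFRB and FGFR2 followed with overlapping values, from 0.121 to 1.49, and HGF came last. In HDAC8 the order again began with FGFR1 (63.5, 54.0 and 55.1) and MET (42.4, 54.6 and 55.5), which now overlapped, and PDGFA was next (36.9, 34.1 and 34.5) without overlap on either side. PDGFC, PDGFRA, FGF2, FGFR3 and FGFR2 formed a run from 1.83 to 4.98 in which each neighbour overlapped the next. PDGFRB lay below them (0 to 0.170). With the union of all exons as the length, MET came before FGFR1 in both groups (the FGFR1 union spans 17201 bases, its canonical transcript 5697). PDGFA then lost its separate place. In HDAC8 it came before FGFR1 (means 31.0 and 28.2) and overlapped it, and in EV it came after FGF2 (6.95 and 7.70) and overlapped it. The order of the leading genes therefore rests on the length used.

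**Figure D2:**
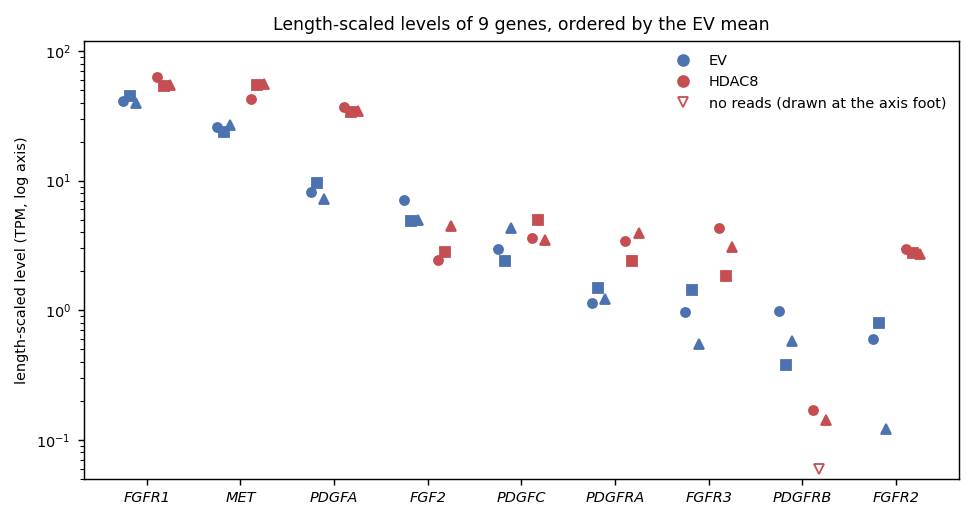
Length-scaled levels (TPM, log y axis) of 9 genes in each library, ordered along the x axis by the EV mean, with EV in blue and HDAC8 in red. FGFR1 and MET lead in both groups, PDGFA moves up to 34.1 to 36.9 in HDAC8, and PDGFRB in HDAC8 lies below the other genes shown. HGF is left out.

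As a share of the summed FGFR1, FGFR2, FGFR3 and FGFR4 level, FGFR1 made up 81.0% to 83.8% in EV and 82.5% to 88.6% in HDAC8. FGFR2 and FGFR3 together made up 3.17%, 4.05% and 1.37% in EV and 9.45%, 7.54% and 8.69% in HDAC8, which is 2.86 ± 1.37% against 8.56 ± 0.964% (SD, n = 3). The groups did not overlap, and since this sum was formed after both genes were seen to be higher, it is given without a test. FGFR4, which is not among the 10 genes, made up 13.1% to 17.1% in EV and 3.87% to 8.06% in HDAC8, and its own log2 fold change of -0.93 was not called (DESeq2 adjusted p = 0.130). These shares depend on the length used. With the union of all exons, FGFR1 made up 70.1 ± 2.20% in EV and 75.5 ± 6.07% in HDAC8, FGFR2 and FGFR3 together 4.95 ± 2.09% and 13.2 ± 2.40% (SD, n = 3), and FGFR4 22% to 28.2% and 6.98% to 13.6%. The direction of each difference between the groups was the same with both lengths.

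**Figure D3:**
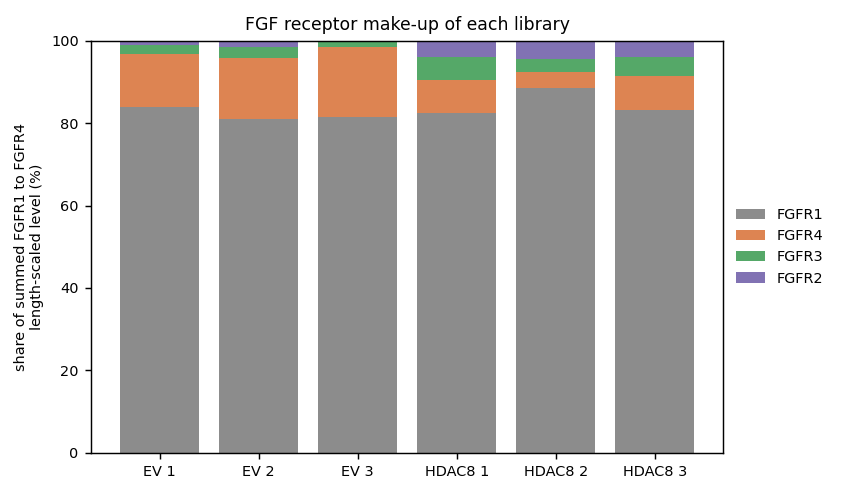
Share (y axis, percent) of each FGF receptor gene in the summed length-scaled level of FGFR1 to FGFR4, as stacked bars for the 6 libraries. FGFR1 fills at least 81.0% of every bar, the FGFR2 and FGFR3 segments are larger in the HDAC8 libraries, and the FGFR4 segment is smaller.

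FGF2 (ENSG00000138685, GRCh38 chromosome 4, 122826682 to 122898236, plus strand) encodes basic FGF, a growth factor that melanoma cells are known to make for themselves. It had 727.7, 581.8 and 585.2 normalized counts in EV and 241.1, 284.7 and 438.8 in HDAC8. All HDAC8 libraries were below all EV libraries, with HDAC8 3 nearest to them. FGF2 fell, with a log2 fold change of -0.97 (SE 0.32, adjusted p = 0.0222 by DESeq2), a 1.97-fold fall. The call held with edgeR (adjusted p = 0.0196) and limma-voom (0.0254), and was lost without any single library other than HDAC8 replicate 3, with adjusted p from 0.0596 to 0.180. FGF2 overlaps NUDT6 on the opposite strand, and strand-specific counting is not stated, so reads of the overlap cannot be told apart. NUDT6 had 100.7, 197.1 and 61.1 normalized counts in EV and 53.9, 85.0 and 138.3 in HDAC8 (log2 fold change -0.37, DESeq2 adjusted p = 0.836). The nearest genes without overlap, BBS12 (0.59) and SPATA5 (-0.15), were not called.

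Most other FGF ligands were not detected at this depth. Of 17 genes, 11 had no count in any library and only FGF1, FGF7, FGF18 and FGF22 passed the filter. FGF1, which binds every FGF receptor, moved opposite to FGF2, from 294.7, 151.3 and 279.8 normalized counts to 584.9, 554.1 and 670.8 (log2 fold change 1.32, SE 0.34, DESeq2 adjusted p = 0.00166). The groups did not overlap. Of the 3 ligands of this list with an adjusted p, FGF1 alone was called in either direction, where 11.0% of all genes tested were. FGF7 had 30.4, 30.8 and 3.9 against 0, 7.2 and 1.1 (adjusted p = 0.334) and FGF22 had 53.5 ± 31.1 against 74.4 ± 14.9 (SD, n = 3, adjusted p = 0.819). The median of the list was -0.22.

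Of 12 other FGF receptors, co-receptors and binding proteins, 10 had an adjusted p. Among these, 3 were called higher and 1 lower, where 5.57% and 5.44% of all genes tested were. FGFRL1, an FGF receptor relative without a kinase domain, rose from 1558 ± 230.3 to 4812 ± 422.7 normalized counts (SD, n = 3, log2 fold change 1.63, DESeq2 adjusted p = 1.14e-19). Of the heparan sulphate carriers, SDC4 (log2 fold change 0.95, adjusted p = 1.93e-07) and GPC1 (0.81, adjusted p = 2.00e-04, both by DESeq2) rose as well. SDC2 was lower without overlap but not called (-0.63, adjusted p = 0.0565), and SDC1 was not called either (0.51, adjusted p = 0.536, both by DESeq2). SDC3, also such a carrier, had the most normalized counts of the list, at 68650 ± 13129 against 49295 ± 3515 (SD, n = 3). Its log2 fold change of -0.48 did not reach the fold threshold (adjusted p = 0.0140). NCAM1, a neural cell adhesion molecule that can bind FGF receptors, fell from 5632 ± 568.7 to 1665 ± 239.0 (log2 fold change -1.76, adjusted p = 1.92e-23). The median log2 fold change of this list was 0.51, against 0.00 for all genes.

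The PDGF receptors belong to a family with KIT, CSF1R, FLT3 and the VEGF receptors, and 15 further PDGF and VEGF family genes were read beside them. FLT1, which encodes VEGF receptor 1, rose from 329.3, 283.9 and 335.9 normalized counts to 4378.9, 6918.1 and 7370.0. The groups lay far apart, with a log2 fold change of 4.30 (SE 0.21, adjusted p = 1.42e-92 by DESeq2). NRP1, a co-receptor for VEGF and semaphorins that also binds PDGF and HGF, rose from 2723 ± 75.6 to 7791 ± 536.5 (SD, n = 3, log2 fold change 1.52, adjusted p = 3.37e-26). The ligand gene PGF, whose product binds FLT1, fell (451.1 ± 24.4 to 186.6 ± 96.8, SD, n = 3, log2 fold change -1.27, adjusted p = 0.0172). VEGFA was not called (log2 fold change -0.37, adjusted p = 0.0846). Of the 11 genes in this list with an adjusted p, 2 were called higher and 1 lower, where 5.57% and 5.44% of all genes tested were. The median log2 fold change of the list was -0.06.

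**Figure D4:**
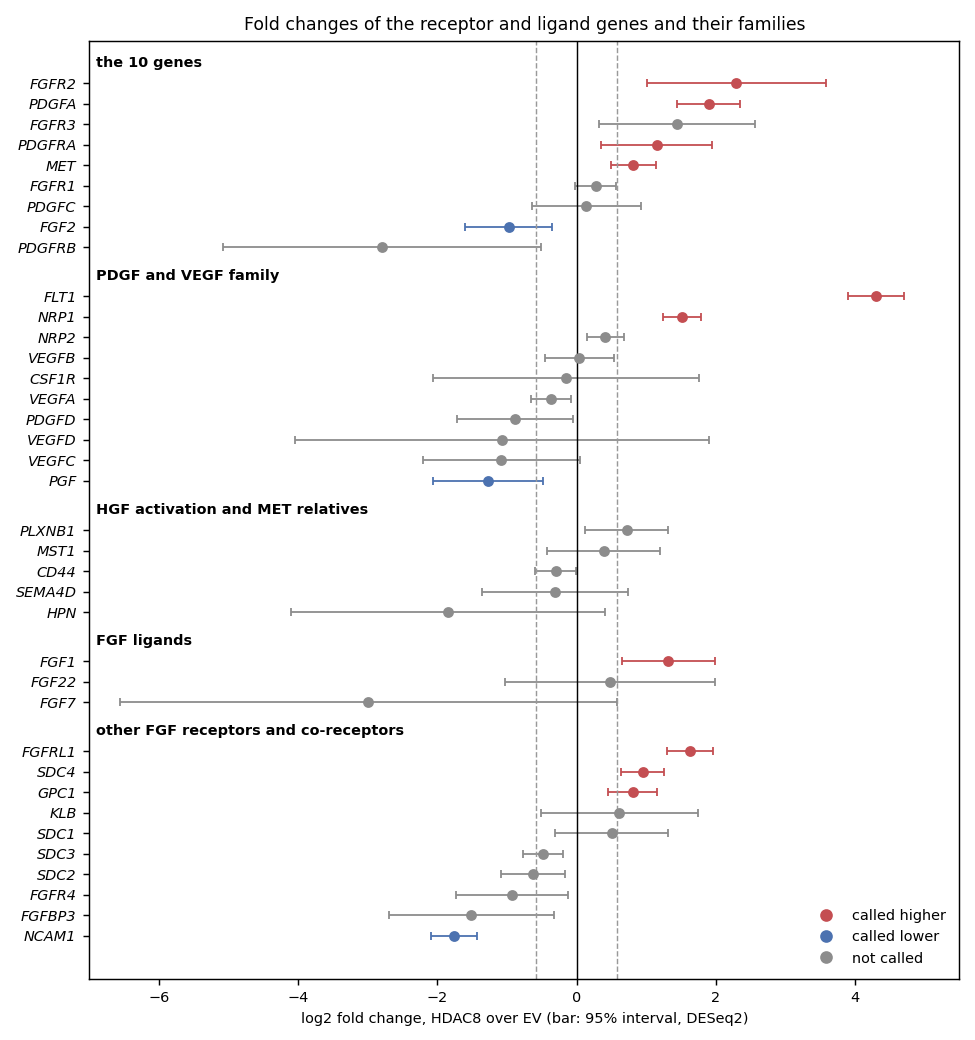
DESeq2 log2 fold change of HDAC8 over EV (x axis) with its 95% interval for 9 of the 10 genes and for their family lists, with red for genes called higher, blue for lower and grey for genes not called, and dashed lines at the threshold of 0.58. Genes with no EV reads or no adjusted p are left out. FGFR2, PDGFA, PDGFRA and MET lie to the right, FGF2 to the left, and FLT1 lies farthest right at 4.30.

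Downstream of these receptors, 1 of 18 adaptors and effectors was called, where 11.0% of all genes tested were. In 6 of the 18 the groups shared no range (SRC, GAB2, GRB2, SOS1, PTPN11 and CRKL), against 24.0% of all genes past the filter. SRC, a kinase recruited by active receptors, fell from 212.9, 401.6 and 174.4 normalized counts to 9.4, 4.1 and 37.0 (log2 fold change -3.98, SE 0.70, DESeq2 adjusted p = 6.37e-07). FRS2, the docking protein of FGF receptors, had a log2 fold change of -0.31 (adjusted p = 0.471), GAB1, that of MET, one of -0.28 (0.519) and GRB2 one of -0.22 (0.450). GAB2 had the most normalized counts of this list (12847 ± 1167 against 10659 ± 714.4, SD, n = 3, adjusted p = 0.187). The median of the list was -0.19. The list of 10 genes that ERK signalling induces, most of which damp it, had a median of -0.08. In it 2 were called lower, where 5.44% of all genes tested were, and none higher. The 2 were the inhibitor SPRY1 (log2 fold change -1.07, adjusted p = 2.32e-04) and the transcription factor ETV4 (-0.72, adjusted p = 5.04e-04). In 5 of these 10 genes the groups shared no range (SPRY1, SPRY4, ETV4 and ETV5 lower, DUSP6 higher), against 24.0% of all genes past the filter. The log2 fold change of SPRY4 (-0.43, adjusted p = 0.0109 by DESeq2) did not reach the fold threshold. DUSP6, often read as a gauge of ERK output, had 9712 ± 502.4 against 11916 ± 1254 (SD, n = 3, adjusted p = 0.143) and was not called. DUSP4 had the most normalized counts of that list, at 16080 and 16929 on average, and was not called (adjusted p = 0.821).

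The genes whose profile over the 6 libraries lay nearest to that of each called gene were sought among 14450 others with a mean of at least 50 normalized counts, by the root mean square distance of centred log2 values. All distances share the same 6 libraries and describe the profile only. Nearest to PDGFA were ADAM19 (distance 0.0679) and CCDC149 (0.0731), and to MET were ITGA2, a collagen-binding integrin subunit (0.0474), and SLC26A2, a sulphate transporter (0.0513). FGF2 lay nearest to THBS2, which encodes a matrix glycoprotein (0.0921), and AP000648.3 (0.102). For PDGFRA they were AP001972.5 (0.111) and HIVEP3 (0.120), and for FGFR2, whose EV values spread most, DNAJC15 (0.314) and AC007608.2 (0.318).

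**Figure D5:**
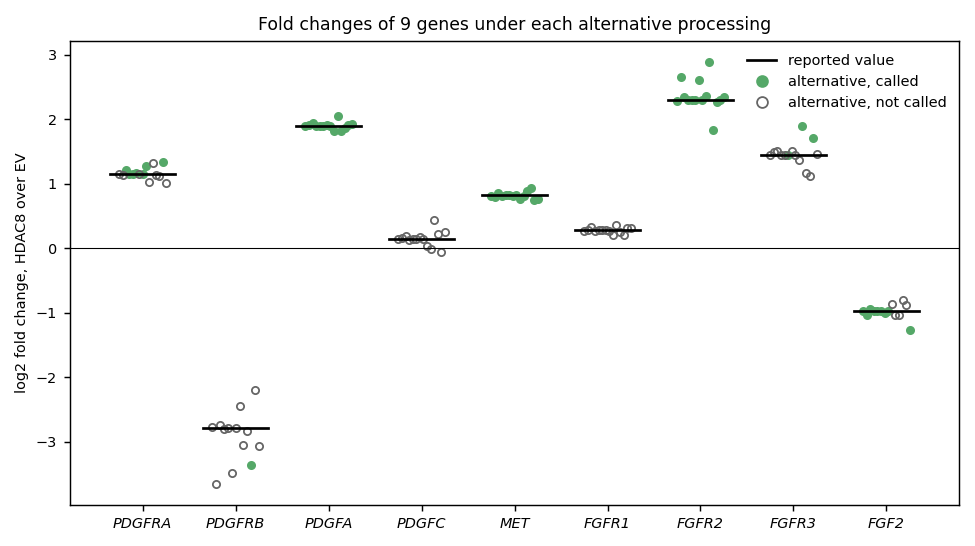
Log2 fold change of HDAC8 over EV (y axis) of 9 genes in the reported fit (bar) and under each alternative processing (points, filled where called), without the test against 0.58 and the unadjusted threshold. PDGFA, MET and FGFR2 stay called at every point, PDGFRA, FGF2 and FGFR3 at some, and PDGFRB only without HDAC8 replicate 1. The PDGFRB points run from -3.65 to -2.20.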

How the data were processed

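The deposited table holds RSEM expected counts per gene for 6 WM164 libraries, which the authors made with Trimmomatic, STAR and RSEM and did not scale between libraries. Genome build, annotation release, strand setting and duplicate removal are not given in the sources used here. All columns of values belonged to these libraries. Counts were rounded to whole numbers, and the groups were tested in DESeq2 1.42.0 (R 4.3.3; Wald test, two-sided, no covariates, default size factors). The 26162 genes with 10 or more counts over the 6 libraries entered the fit. Calls used the thresholds of the study's methods, a Benjamini-Hochberg adjusted p under 0.05 with a change of 0.58 or more on the log2 scale. Of the genes fitted, 5141 had no adjusted p and were left out of counts of calls. Normalized counts are counts divided by size factors (0.918 to 1.17). A library without reads allows 3 counts, which covers counting error only, since reads are not independent molecules. Positions and lengths are from GENCODE 44 (GRCh38), with a length for 56558 of 60504 genes, and promoter sequences from RefSeq (GRCh38.p14).

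The 10 genes and the gene lists were chosen with earlier results of these data known. Named genes are the 10, HDAC8, list members that were called (or, over 6, the 6 largest), at the floor or highest in their list, the nearest protein-coding neighbours of called genes and the 2 nearest profiles of each. PDGFB, PDGFD, VEGFA, FGF7, FGF22, FGFR4, SDC1, SDC2, FRS2, GAB1, GRB2, SPRY4, ETV5, DUSP6, HPN, SOS1, PTPN11, CRKL, SCFD2, FIP1L1, the uncalled marker genes and overlapping genes were named after their values were seen. Alternatives were edgeR 4.0.16 and limma-voom (limma 3.58.1), other size factors, other filters, a replicate block, other thresholds, a fit without mitochondrial genes and each library left out. Adding the reads of AC058822.1 to PDGFRA and the union of exons as the length for receptor shares were chosen after seeing the data. Scripts were first tested on simulated data.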

Additional observations from a re-analysis of the deposited data

How the results depend on the processing

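Under the alternatives the 9 genes gave 144 values, of which 17 were no longer called, 6 became called, 2 turned the other way and 119 did none of these. PDGFA and FGFR1 kept direction and call throughout. Against a change of 0.58 itself, 292 genes were higher and 291 lower, and of the 10 genes 1 and 0, with MET (0.82), FGFR2 (2.30), PDGFRA (1.16) and FGF2 (-0.97) not called. At an unadjusted p, 1839 and 1856 genes were called, and of the 10 genes 5 were higher and 2 lower, since FGFR3 (1.45) and PDGFRB (-2.79) passed, each in its direction. Both alternatives ask another question of the same fit. PDGFRA was not called with edgeR (log2 fold change 1.149), limma-voom (1.133) or the replicate block (1.151), and FGFR3 was called with at least 10 counts in every library (1.45), where fewer genes were tested. Replicate numbers did not pair the libraries (correlations of deviations -0.027, -0.066 and 0.040), and the replicate block called 1075 genes as higher and 1078 as lower.

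Leaving out single libraries gave 877 to 1218 genes called higher and 746 to 1378 called lower, with 746 without EV replicate 3. Of the 10 genes 3 to 5 were higher and 0 to 1 lower. The log2 fold change ran from 1.00 to 1.33 for PDGFRA, -3.37 to -2.21 for PDGFRB, 1.12 to 1.90 for FGFR3 and -1.26 to -0.81 for FGF2. PDGFC, not called in any fit, changed direction without EV replicate 2 (-0.013) and without HDAC8 replicate 2 (-0.056), within a range of -0.056 to 0.44. The cause of these shifts was not tested. PDGFRB, FGFR2, FGFR3 and PDGFRA had at most 375.7 normalized counts in any library, which limits what their tests can show.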
